A study of Mus musculus with 19 samples.

Results

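Transcripts of 10 imprinted growth genes were followed in mammary tumors and glands of *MMTV-neu* mice, and in wild-type glands. The genes are *Nnat*, *H19*, *Igf2*, *Meg3*, *Peg3*, *Mest*, *Dlk1*, *Plagl1*, *Cdkn1c* and *Grb10*. They are 10 of the 46078 genes in the deposited table and were found there by Ensembl identifier. All 10 have a row and were measured in all 19 samples. *Nnat* was chosen by its readout in these samples, as the gene with the largest fall in the tumors of *N* mice against the glands of *N* mice (T-N against MG-N). That contrast is therefore described with no test, and *Nnat* is described with no test wherever MG-N or T-N is one of the groups compared. The other 9 genes were named together with *Nnat*, with earlier results of these data known.

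Imprinted genes are transcribed mostly from the copy inherited from 1 parent, as set by DNA methylation laid down in the germ line. Many of them control growth before birth and are silenced or reduced in most adult tissues. The genes expressed from the paternal copy often promote growth, such as the ligand gene *Igf2*, and those expressed from the maternal copy often restrain it, such as the cell cycle inhibitor *Cdkn1c*. RNA counts of whole tissue do not tell the parental copies apart, so the values below are total levels.

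The 5 groups were 3 wild-type glands (MG-WT), 4 glands of *N* mice (MG-N), 4 glands of *NP* mice (MG-NP), 4 tumors of *N* mice (T-N) and 4 tumors of *NP* mice (T-NP). *MMTV-neu* expresses the receptor tyrosine kinase ERBB2 in mammary epithelium, *Fsp-Cre* expresses Cre recombinase in fibroblasts, and p53wm-R172H is a conditional allele that gives wild-type p53 until Cre converts it to the R172H mutant. All MG-NP and T-NP samples had the genotype *MMTV-neu*;*p53wm-R172H/+*;*Fsp-Cre*. All T-N samples and MG-N replicate 1 had *MMTV-neu*;*Fsp-Cre*, whereas MG-N replicates 2, 3 and 4 had *MMTV-neu*;*p53wm-R172H/+* with no Cre. Every group but MG-WT thus shared *MMTV-neu*, and the *N* controls differed among themselves in which second allele they carried. The glands of *N* and *NP* mice came from tumor-bearing females and had no malignant lesion, the wild-type females were matched for age, the strain background of the cohort was mixed FVB/C57/BALB/c, and ages in days were not among the sample labels. T-NP replicates 1 and 2 share an animal number in their library names and may come from the same mouse.

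Values are normalized counts, that is, reads per gene divided by a library size factor. The libraries held 20899152 to 27262440 recovered reads, except the 3 MG-WT libraries with 54677315 to 62645459, and 3 reads correspond to 1.28 to 4.28 normalized counts. Differences are log2 fold changes ± standard error from limma (a linear model fitted to all genes, with Benjamini-Hochberg adjusted p), and a gene is called at an adjusted p under 0.05 and at least a 2-fold change. The MG-WT glands stood apart. Their markers of luminal epithelium scored 12.96 to 13.23 (mean log2 of normalized count + 1 over the 9 markers) against 10.1 to 11.5 in the glands of *N* and *NP* mice, and their 9 white adipocyte markers together took 0.0070% to 0.0109% of reads against 0.490% to 2.00%. Sequencing depth, the absence of *MMTV-neu*, *Fsp-Cre* and p53wm-R172H, and this makeup cannot be told apart in comparisons with MG-WT. Strain may differ as well, since the paper gives the mixed background for the *MMTV-neu* cohorts and none for the wild-type mice. In T-N and T-NP the same adipocyte markers took 0.0024% to 0.030% of reads. The 20 skeletal muscle markers took 19.5% of reads in MG-NP replicate 2, 11.3% in replicate 4, 3.62% in replicate 1 and 0.131% in replicate 3, against at most 0.204% in any other library. MG-NP replicate 4 also stood out in the 5 brown adipocyte markers, which took 0.225% of its reads, against at most 0.020% in any other library. A lower level in whole tissue can mean fewer cells of the type that makes the RNA or less RNA per cell, and these cannot be told apart here.

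Promoter bases are shown for *Nnat*, *Peg3* and *Dlk1*, the 3 genes with a single annotated start in the RefSeq table (GRCm38.p6) that lies at the outer end of the gene model. *Nnat* had the largest range of levels on the log2 scale, *Peg3* had high counts in tumors and *Dlk1* was low throughout. The bases run 5′ to 3′ on the strand of the gene and end just before the gene model, in lower case with each CpG dinucleotide, the site of DNA methylation, in capitals.
Nnat (chr2:157559828-157560077, + strand): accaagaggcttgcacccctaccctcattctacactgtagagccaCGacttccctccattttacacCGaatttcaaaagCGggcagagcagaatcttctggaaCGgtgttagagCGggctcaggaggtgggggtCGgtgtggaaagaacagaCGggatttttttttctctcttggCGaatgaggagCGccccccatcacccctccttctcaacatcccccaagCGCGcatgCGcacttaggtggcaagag
Peg3 (chr7:6730432-6730669, - strand): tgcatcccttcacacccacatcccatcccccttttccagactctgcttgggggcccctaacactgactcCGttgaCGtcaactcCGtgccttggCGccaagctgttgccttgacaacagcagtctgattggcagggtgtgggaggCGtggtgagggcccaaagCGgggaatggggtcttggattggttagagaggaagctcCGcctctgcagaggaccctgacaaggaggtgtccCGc
Dlk1 (chr12:109452573-109452822, + strand): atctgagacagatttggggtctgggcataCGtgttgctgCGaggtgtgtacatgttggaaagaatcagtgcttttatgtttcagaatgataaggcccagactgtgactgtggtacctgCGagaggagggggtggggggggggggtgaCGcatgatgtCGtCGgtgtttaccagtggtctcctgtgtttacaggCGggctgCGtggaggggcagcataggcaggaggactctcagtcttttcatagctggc
These stretches held 12, 8 and 8 CpG. In windows of 300 bases (250 before the start and 50 after it), the same promoters held 17, 13 and 9 CpG, against a median of 7 over all 32851 windows of the table. The table had 15 windows for 8 of the 10 genes, 12 of them above that median, with 45 CpG in 1 of the 2 *Grb10* windows and 26 in that of *Plagl1*. The TATA box letters TATAAA occurred on either strand in 1 of the 15 windows and in 13.6% of all windows. The palindrome GGGGCCCC occurred in 1 of the 15, that of *Peg3*, and in 1.08% of all. No methylation was measured in these samples, and the letters are given as a description of the loci.

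**Figure D1:**
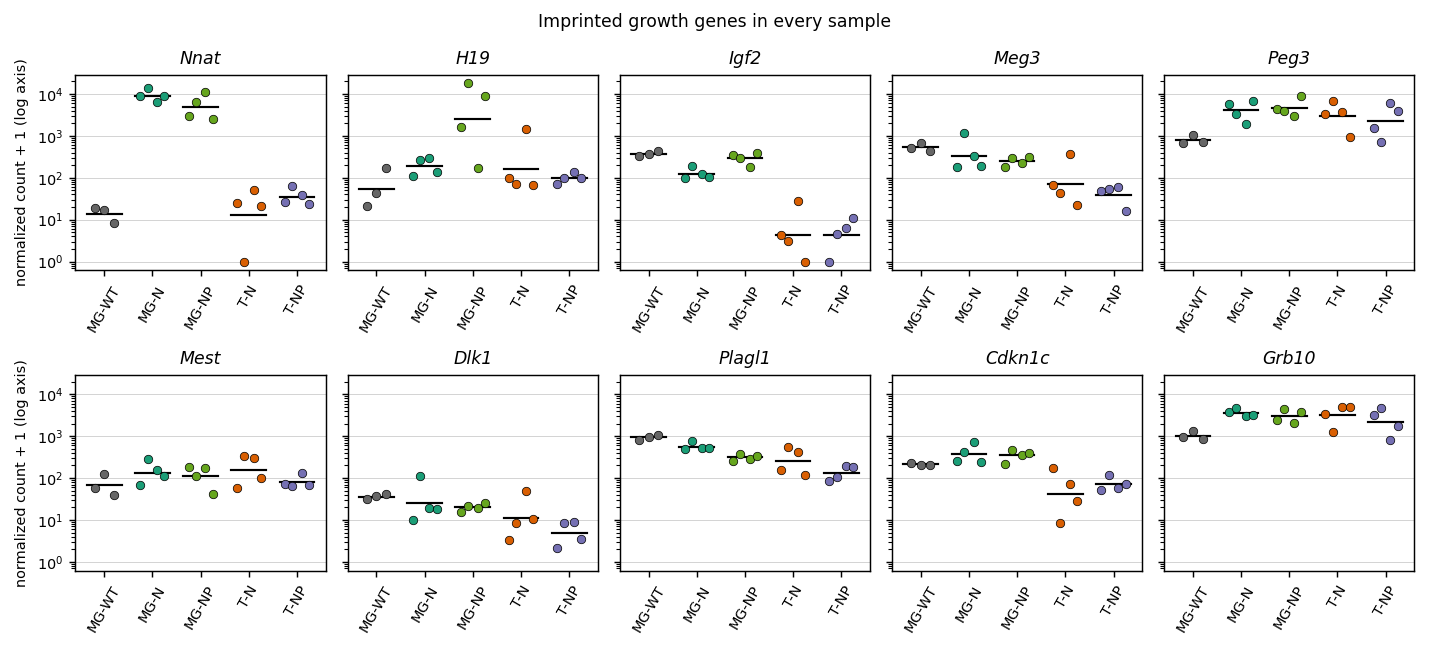
Normalized count + 1 (log axis) of the 10 imprinted genes in each of the 19 samples, by group; each point is 1 sample and each line is the group's mean on the log scale. *Nnat* was at 2543 or more in all 8 glands of *N* and *NP* mice and at 63.4 or less in all other samples, whereas *Peg3* and *Grb10* were at 716 or more in every tumor and overlapped between tumors and glands.

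*Nnat* (chr2:157560078-157562522, + strand) encodes neuronatin, a small membrane protein of the endoplasmic reticulum, and lies within the oppositely transcribed *Blcap*. In wild-type glands it had 17.5, 15.6 and 7.23 normalized counts. The MG-N glands had 8699, 13495, 6284 and 8744, and the MG-NP glands 2979.6, 6403, 11001 and 2543. The glands of *N* and *NP* mice were thus all far above the wild-type glands, with overlap between MG-N and MG-NP. T-N tumors had 23.9, 0, 50.5 and 19.8 normalized counts, and T-NP tumors 25.8, 63.4, 37.7 and 22.5. No tumor reached the lowest gland of its genotype. Per kilobase of exon, *Nnat* was the highest of the 10 genes in MG-N (5088 normalized counts per kb) and MG-NP (3134), and ranked 9 of 10 in MG-WT (7.35), 7 in T-N (12.9) and 6 in T-NP (20.4).

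The main tests on *Nnat* used the samples that did not choose it. In T-NP against MG-NP the mean fell from 5732 ± 3914 to 37.3 ± 18.6 (SD, n = 4 each), a ratio of 153, and the fitted log2 fold change was -7.09 ± 0.51 (SE; limma, Benjamini-Hochberg adjusted p = 2.1e-05). In MG-NP against MG-WT it rose from 13.4 ± 5.46 (SD, n = 3), with a log2 fold change of 8.46 ± 0.55 (limma adjusted p = 1.0e-04). In T-NP against MG-WT it was also higher, at 1.38 ± 0.46 on the log2 scale (limma adjusted p = 0.025), a call lost without MG-WT replicate 3 or T-NP replicate 2. The call was also lost with all 5 groups in one fit, which drew on MG-N and T-N as well. As a description, the mean was 9305 ± 3020 in MG-N and 23.5 ± 20.8 in T-N (SD, n = 4 each).

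The level of *Nnat* followed that of white adipocyte markers between groups. This is a description, since the 19 samples include MG-N and T-N, whose values chose *Nnat*. A gene chosen for its fall there would be close to other genes that fall there. The 5 genes most like it by Pearson correlation of log2 values over the 19 samples, among 14832 genes with a mean of at least 50 normalized counts, were *Lep* (r = 0.992), *Plin4* (0.983), *Slc7a10* (0.977), *Retn* (0.977) and *Car3* (0.976). *Lep* encodes leptin, *Retn* resistin and *Plin4* a lipid droplet protein, all made by fat cells, and *Lep* and *Retn* are among the 9 adipocyte markers. Within the 8 glands of *N* and *NP* mice the same correlations were 0.80, 0.60, 0.47, 0.28 and 0.25, lower than over all samples, a set of samples chosen after seeing the data. Within all 11 glands, which add the low wild-type glands, they were 0.98 to 0.99, and within the 8 tumors 0.81 to 0.95. By rank correlation 1 of these 5 genes, *Lep*, stayed among the 5 most like *Nnat*, and within the 8 tumors or the 11 glands none did. The white adipocyte score was 14.7 to 15.1 in MG-N and 13.5 to 14.8 in MG-NP, against 4.53 to 5.88 in MG-WT, 2.88 to 9.10 in T-N and 5.99 to 7.43 in T-NP. T-N replicate 2, where *Nnat* had no read, also had the lowest adipocyte score, and 3 of the 9 markers reached 10 normalized counts there while 2 were at 0. By contrast, MG-NP replicate 4 had the highest adipocyte score of MG-NP (14.8) but the lowest *Nnat* of the 8 glands of *N* and *NP* mice (2543). The part of adipocyte content in the *Nnat* differences was not tested.

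**Figure D2:**
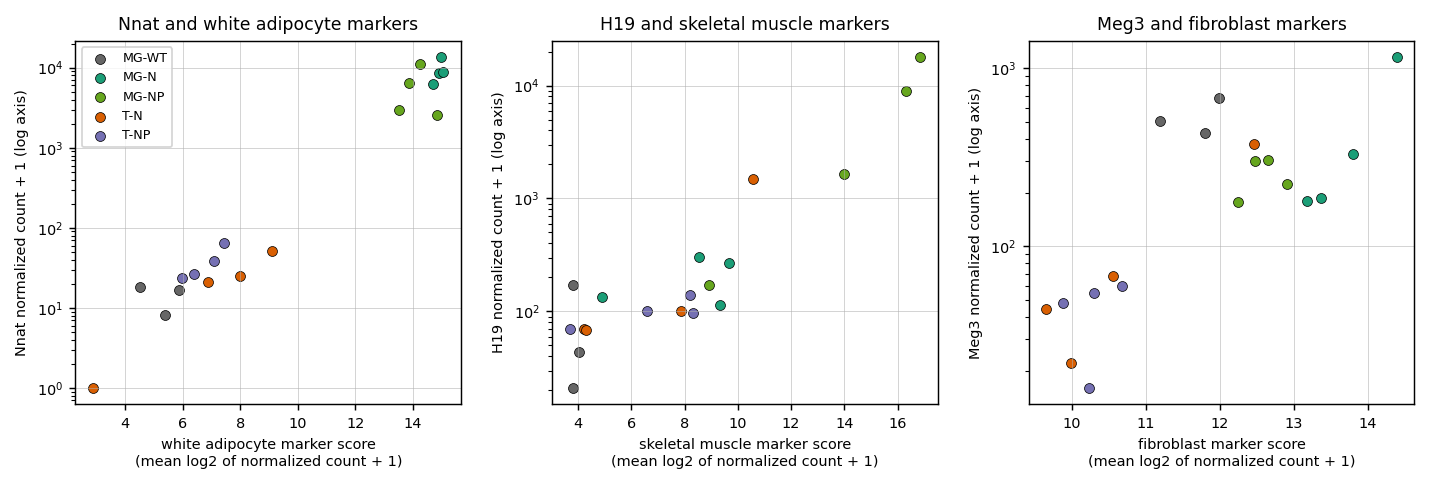
Normalized count + 1 (log axis) of *Nnat*, *H19* and *Meg3* in each sample against the marker score of white adipocytes, skeletal muscle and fibroblasts (mean log2 of normalized count + 1); each point is 1 sample, colored by group. The 8 glands of *N* and *NP* mice are high in both *Nnat* and adipocyte score, the 4 highest *H19* points are the libraries with the highest muscle score, and the tumor highest in *Meg3* is the tumor highest in fibroblast score.

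*Igf2* and *H19* are neighbours with opposite parental expression, *Igf2* from the paternal copy and the noncoding *H19* from the maternal copy. *Igf2* (chr7:142650766-142666816, − strand), which encodes a fetal growth factor, had 321, 369 and 428 normalized counts in MG-WT. The MG-N glands had 95.5, 192, 125 and 101.96, and the MG-NP glands 349, 288, 175 and 386. The MG-N glands were all below the wild-type glands, and MG-NP overlapped both. Tumors had almost none, with 3.41, 2.11, 26.3 and 0 in T-N and 0, 3.66, 5.20 and 9.99 in T-NP. Every tumor was below every gland.

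From MG-NP to T-NP, *Igf2* fell from 299.7 ± 92.1 to 4.71 ± 4.14 (SD, n = 4 each), with a log2 fold change of -6.09 ± 0.69 (limma adjusted p = 1.6e-04). With 3 reads or fewer in 2 of the 4 T-NP tumors, the size of this fall is imprecise. It was also lower than in MG-WT, with log2 fold changes of -6.46 ± 0.72 in T-NP (limma adjusted p = 7.7e-05), -6.40 ± 0.97 in T-N (0.0011) and -1.57 ± 0.26 in MG-N (0.0012), the last call lost when all 5 groups were fitted together. MG-NP and MG-WT did not pass the test for *Igf2* (-0.36 ± 0.29, limma adjusted p = 0.33). The mean of T-N was 7.94 ± 12.3 against 129 ± 44.1 in MG-N, as a description.

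*H19* (chr7:142575529-142578143, − strand) had the largest spread within a group (SD of log2 values 2.98 in MG-NP). It had 20.0, 43.0 and 171.5 normalized counts in MG-WT and 112, 267, 301 and 133 in MG-N. In MG-NP it had 1640.5, 17782, 171 and 8905, so that the highest of the 4 glands was 103.9 times the lowest. T-N tumors had 99.98, 69.5, 1487 and 67.7, and T-NP tumors 68.4, 100.03, 139 and 96.1. The order of the MG-NP glands, replicate 2, 4, 1 and 3, was the same as that of their skeletal muscle scores (16.8, 16.3, 14.0 and 8.92), and T-N replicate 3 had the highest muscle score of the tumors (10.6). *Dusp13*, the gene most like *H19* over the 19 samples (r = 0.945), encodes a phosphatase of testis and skeletal muscle.

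*H19* rose in MG-NP against MG-WT by 5.58 ± 1.57 on the log2 scale (limma adjusted p = 0.023), although MG-NP replicate 3 lay within the MG-WT range, and the call was lost without MG-WT replicate 1 or 2 and with the replicate number as a block. Without MG-WT replicate 3, *H19* was also called higher than MG-WT in MG-N (2.62, limma adjusted p = 0.0058) and T-NP (1.70, 0.011). In T-NP against MG-NP it fell by 4.71 ± 1.25 (limma adjusted p = 0.012). With the muscle score added to the fit, MG-NP against MG-WT gave -2.63 and T-NP against MG-NP -0.014, neither past the test, in groups whose muscle scores do not overlap. For *H19*, muscle content cannot be told apart from genotype group in MG-NP against MG-WT, nor from tumor or gland in T-NP against MG-NP, since 3 of the 4 MG-NP glands held the most muscle RNA. *Igf2* and *H19* were correlated within the 8 tumors (r = 0.78) and the 8 glands of *N* and *NP* mice (0.85), but less so over all 19 samples (0.40), where *Igf2* was high in wild-type glands and *H19* was not. Among the tumors, *Igf2* had 26 reads in T-N replicate 3, the tumor highest in *H19*, and at most 8 reads elsewhere.

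*Dlk1* and *Meg3* form a second pair on chromosome 12, *Dlk1* paternal and *Meg3* maternal. *Dlk1* (chr12:109452823-109463336, + strand) encodes a membrane protein that keeps preadipocytes undifferentiated. It had 29.9, 36.1 and 40.3 normalized counts in MG-WT, 8.92, 113, 18.8 and 17.5 in the MG-N glands, and 14.3, 20.0, 18.4 and 24.5 in MG-NP. It had 2.27, 7.38, 48.5 and 9.34 in T-N and 1.12, 7.32, 7.79 and 2.50 in T-NP. The 2 high samples, MG-N replicate 2 and T-N replicate 3, stood above all wild-type glands, and all T-NP tumors were below all glands.

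*Meg3* (chr12:109541001-109571726, + strand), a noncoding RNA, had 504, 681 and 429.9 normalized counts in MG-WT. The MG-N glands had 178, 1152, 329.6 and 185, and the MG-NP glands 175, 299.8, 223 and 305. The same MG-N replicate 2 that was high in *Dlk1* was the highest of all samples. T-N tumors had 67.0, 43.2, 374 and 21.0, with T-N replicate 3 again the highest, and T-NP tumors had 47.1, 53.7, 58.4 and 15.0. *Dlk1* and *Meg3* were correlated over the 19 samples (r = 0.87), within the 8 tumors (0.67) and within the 8 glands of *N* and *NP* mice (0.95), and 2 further noncoding RNAs of the cluster, named for their position, followed *Meg3* as well (*Rian* r = 0.91, *Mirg* 0.83, 19 samples).

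Both fell in T-NP against MG-NP, *Dlk1* by 2.05 ± 0.50 (limma adjusted p = 0.0084) and *Meg3* by 2.63 ± 0.44 (0.0013) on the log2 scale. With the muscle score in the fit the *Dlk1* call was lost and that of *Meg3* was kept. Against MG-WT, *Meg3* was lower in MG-NP (-1.11 ± 0.26, limma adjusted p = 0.012), T-N (-2.91 ± 0.85, 0.020) and T-NP (-3.74 ± 0.46, 1.3e-04). The first of these calls was lost without MG-WT replicate 2 or MG-NP replicate 1, with all 5 groups in one fit and once the muscle score was added to the fit. The second was lost without any of the 3 MG-WT replicates, by edgeR and with the replicate number as a block. *Dlk1* was lower than MG-WT in T-NP (-2.91 ± 0.54, limma adjusted p = 0.0014). Its difference in MG-NP (-0.86, limma adjusted p = 0.046) was under 2-fold, and that in T-N passed without T-N replicate 3 (-2.46, 0.0058). MG-N replicate 2 and T-N replicate 3, the samples high in both genes, had the highest fibroblast marker scores of the glands (14.4) and of the tumors (12.5), in which all 9 markers were present. The part of fibroblast content in *Dlk1* and *Meg3* was not tested.

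*Cdkn1c* and *Plagl1* restrain the cell cycle. *Cdkn1c* (chr7:143458339-143461050, − strand) encodes the cyclin-dependent kinase inhibitor p57. It had 232, 200.6 and 205 normalized counts in MG-WT, 249.6, 414, 739 and 242 in the MG-N glands, and 217, 478, 357 and 403 in MG-NP. It had 175, 7.38, 72.7 and 26.8 in T-N and 51.6, 119.5, 58.4 and 71.2 in T-NP. Every tumor was below every gland. *Cdkn1c* fell in T-NP against MG-NP by 2.28 ± 0.34 on the log2 scale (limma adjusted p = 6.9e-04) and was lower in T-NP than in MG-WT (-1.56 ± 0.30, 0.0017), the latter call lost when all 5 groups were fitted together. In T-N against MG-WT the difference was -2.35 ± 0.92 and missed the threshold (limma adjusted p = 0.058), which it passed without T-N replicate 1, at a pseudocount of 5 and with all 5 groups in one fit.

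*Plagl1* (chr10:13060504-13131694, + strand) encodes a zinc finger transcription factor that acts on other imprinted genes. It had 813, 928 and 1081 normalized counts in MG-WT, 490.4, 749, 518 and 520.1 in the MG-N glands, and 249, 379.7, 289 and 341 in MG-NP. The 3 gland groups did not overlap, wild-type glands being highest and MG-NP glands lowest. Tumors had 158, 548, 414 and 117 in T-N and 84.1, 106, 194 and 182 in T-NP. *Plagl1* was lower than in MG-WT in MG-NP (-1.59 ± 0.20, limma adjusted p = 9.4e-04), T-N (-1.87 ± 0.53, 0.018) and T-NP (-2.80 ± 0.31, 6.8e-05). The T-N call was lost without MG-WT replicate 2 or 3. *Plagl1* also fell in T-NP against MG-NP by 1.22 ± 0.31 (limma adjusted p = 0.0095), which dropped under 2-fold without T-NP replicate 1. That call was also lost with the muscle score in the fit. MG-NP against MG-N gave -0.85 ± 0.20, with no overlap between groups and an unadjusted p of 0.0022, but a limma adjusted p of 0.31 over all genes. No alternative fit called it, though at least 1 of them gave an adjusted p under 0.05 with a change under 2-fold.

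*Grb10*, *Peg3* and *Mest* were not called lower in any tumor comparison. *Grb10* (chr11:11930508-12038683, − strand) encodes an adaptor that binds and damps the insulin and IGF1 receptors. It had 949.7, 1313 and 848 normalized counts in MG-WT, 3761, 4695, 2944 and 3186 in the MG-N glands, and 2385, 4321, 2105 and 3683 in MG-NP. It had 3445, 1232, 5046 and 5028 in T-N and 3139, 4626, 825 and 1763 in T-NP. All glands of *N* and *NP* mice were above all wild-type glands, and 1 tumor in each group was within or below the wild-type range. *Grb10* was higher than in MG-WT in MG-N (1.81 ± 0.20, limma adjusted p = 1.6e-04), MG-NP (1.55 ± 0.29, 0.0047) and T-N (1.66 ± 0.48, 0.020), the last lost without MG-WT replicate 1 or 3 or with the block. The MG-NP call was lost with the muscle score in the fit. T-NP against MG-WT gave 1.07 ± 0.51 (limma adjusted p = 0.092), a difference called by edgeR (1.37, 0.037), DESeq2 (1.32, 0.0095), with the replicate number as a block and without T-NP replicate 3, and T-NP against MG-NP -0.48 ± 0.50 (0.44).

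*Peg3* (chr7:6703892-6730431, − strand) encodes a zinc finger protein. It had 687, 1039 and 695 normalized counts in MG-WT, 5906, 3398, 1947 and 6779 in the MG-N glands, and 4455, 3914, 3005 and 8823 in MG-NP. T-N tumors had 3398, 6946, 3642 and 947, and T-NP tumors 1548, 716, 5932 and 3902. As for *Grb10*, all glands of *N* and *NP* mice exceeded the wild-type glands, and 1 tumor of each group lay within the wild-type range. *Peg3* was higher than in MG-WT in MG-N (2.35 ± 0.41, limma adjusted p = 0.0016), MG-NP (2.55 ± 0.36, 0.0016) and T-N (1.92 ± 0.59, 0.025), the last lost without MG-WT replicate 1 or 3 or T-N replicate 3. With the muscle score in the fit the MG-NP call was lost. In T-NP it was 1.51 ± 0.64 (limma adjusted p = 0.062), past the threshold without T-NP replicate 2, with T-NP replicates 1 and 2 averaged, and by edgeR (1.95, 0.023) and DESeq2 (1.91, 0.015). T-NP and MG-NP overlapped (-1.04 ± 0.64, limma adjusted p = 0.19).

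*Mest* (chr6:30723547-30748465, + strand), which encodes a hydrolase-like protein of fat and mesoderm, passed in no comparison, though T-N against MG-WT did so without T-N replicate 1 (1.71, limma adjusted p = 0.048). It had 58.0, 127 and 38.8 normalized counts in MG-WT, 66.2, 277, 151 and 113 in the MG-N glands, and 187, 108, 169 and 40.0 in MG-NP. It had 57.9, 343, 299.9 and 100.4 in T-N and 70.6, 64.7, 132 and 67.4 in T-NP. All 5 groups overlapped, and the 2 highest samples were T-N tumors.

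Counted together in T-NP against MG-NP, a comparison that used none of the samples that chose *Nnat*, 7 of the 10 genes were called, all lower. Of all 17880 genes tested, 38.7% were called, 14.7% higher and 24.0% lower, and the median log2 fold change was -2.16 over the 10 genes and -0.07 over all genes. With the muscle score as a covariate 4 of the 10 were called, *Nnat*, *Igf2*, *Meg3* and *Cdkn1c*, and of all genes 24.3%. Against MG-WT, 6 of 10 were called in MG-NP, 4 higher and 2 lower, where 32.6% of all genes were called (16.4% higher, 16.2% lower). With the muscle score as a covariate 2 of these calls remained, *Nnat* and *Plagl1*, and 12.6% of all genes were called. Against the same wild-type glands, 3 of the 9 genes tested were called in MG-N, 2 higher and 1 lower, a share near the 37.0% called of all genes (19.1% higher, 17.9% lower). Without MG-N replicate 2 this count was 5, with *Meg3* and *Dlk1* added, and the share of all genes in that fit is not given here.

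In T-NP against MG-WT, 6 of 10 genes were called, 1 higher and 5 lower, with 47.8% of all genes called (19.8% higher, 28.0% lower). edgeR and DESeq2 each called 8 there, *Grb10* and *Peg3* added, and 48.4% and 47.9% of all genes. In T-N against MG-WT, 5 of the 9 tested were called, 2 higher and 3 lower, with 42.5% of all genes called (17.4% higher, 25.0% lower), and the count was 2, 3 and 1 without MG-WT replicate 1, 2 and 3. The share of all genes called in those smaller fits is not given here, so the drop cannot be read as particular to these genes. In T-N against MG-N, described with no test, *Nnat*, *Igf2* and *Cdkn1c* had no overlap between groups, 3 of 10, whereas 49.2% of all genes had none.

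**Figure D3:**
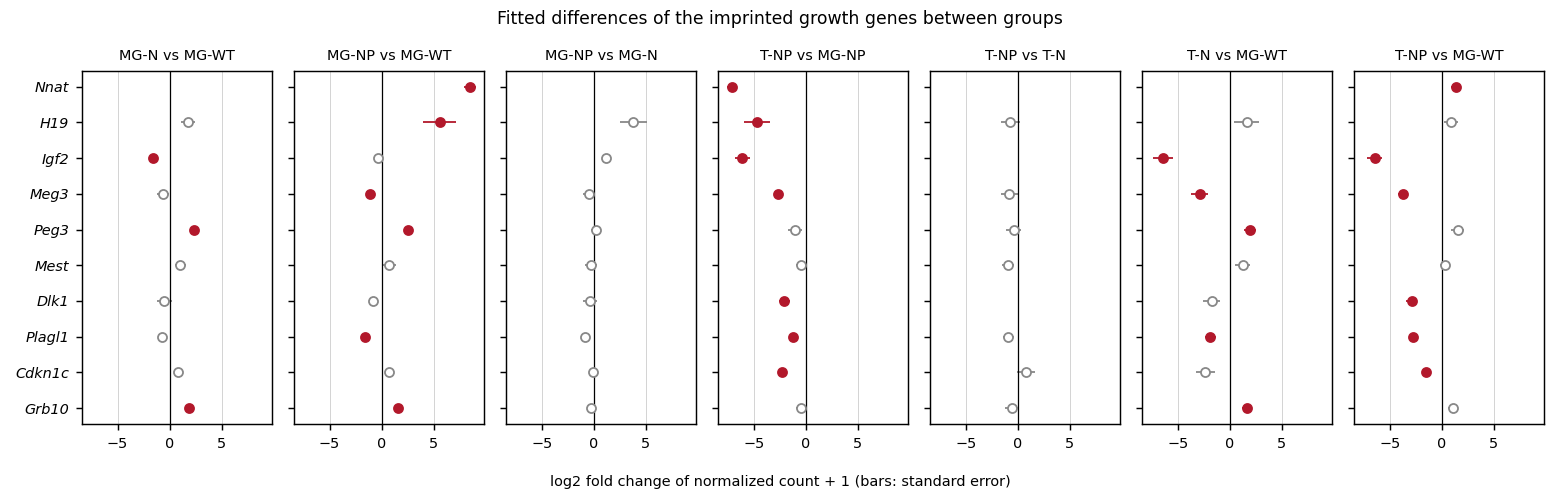
Fitted log2 fold change of normalized count + 1 (x axis, bars are standard errors) of each gene in 7 comparisons between groups; filled red points were called and open gray points were not, and genes without a test have no point. *Igf2*, *Meg3* and *Plagl1* lie left of 0 in every tumor comparison against glands, whereas *Peg3* and *Grb10* lie right of 0 in every comparison with MG-WT.

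Stromal R172H was set against its control in glands and in tumors, but the control genotypes differed. All T-N tumors and MG-N replicate 1 carried *Fsp-Cre* without the p53 allele. MG-N replicates 2, 3 and 4 carried the allele without Cre, so the gland contrast varied mostly Cre and the tumor contrast the allele. Between MG-NP and MG-N, limma called 0 of the 9 genes tested, as for all genes (0%), with 3 of 9 under an unadjusted p of 0.05 (*H19*, *Igf2* and *Plagl1*) and 10.5% of all genes under it. edgeR on the recovered reads called 0 and DESeq2 called 2, *H19* (5.13 on the log2 scale) and *Igf2* (1.22), where DESeq2 called 2.84% of all genes. *H19* was also called by limma without MG-NP replicate 3 (5.09). When the muscle score entered the fit, the limma differences went from 3.79 to 0.072 for *H19* (adjusted p = 0.98) and from 1.21 to 0.55 for *Igf2* (0.57). Muscle markers took 0.131% to 19.5% of reads in MG-NP and 0.020% to 0.195% in MG-N, so muscle content and stromal genotype cannot be told apart for these 2 genes. MG-NP replicate 4, the MG-NP gland highest in *Igf2* (386), also had the most brown adipocyte RNA, and the part of brown fat was not tested. In T-NP against T-N, 0 of the 7 genes tested were called, with 0 under an unadjusted p of 0.05 and 0 by edgeR or DESeq2. Of all genes, limma called 0.0421%, 7.27% were under an unadjusted p of 0.05, edgeR called 0% and DESeq2 0.517%. *Igf2* and *Dlk1* were too low to be tested there. Differences as large as -0.96 ± 0.58 (*Mest*) or 0.79 ± 0.83 (*Cdkn1c*) did not pass the test (limma adjusted p = 0.74 and 0.84).

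The tumors differed widely among themselves. Over the 8 tumors the log2 range was 2.55 (*Mest*) to 6.01 (*Nnat*), against a median of 1.11 over all genes with a mean of at least 50 normalized counts. The range of *Nnat* rests on T-N replicate 2, which had 0 reads, while the other tumors had 19.8 to 63.4 normalized counts. *Igf2* (0 to 26 reads) and *Dlk1* (1 to 48 reads) were also low in tumors, so their ranges are imprecise. T-N replicate 3 was over 2-fold above the median tumor in 6 of the 10 genes and the highest tumor in 5, led by *H19* (3.91 on the log2 scale), *Meg3* (2.87), *Igf2* (2.59) and *Dlk1* (2.57). It was also the tumor with the highest adipocyte (9.10), muscle (10.6), fibroblast (12.5), endothelium (9.75) and macrophage (11.2) marker scores. T-N replicate 2 was the highest tumor in *Peg3*, *Mest* and *Plagl1*, the last pair also high in replicate 3, and the lowest in *Nnat* and *Cdkn1c*, with the lowest adipocyte and fibroblast scores (2.88 and 9.65). The part of these cell types in the differences between single tumors was not tested.

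**Figure D4:**
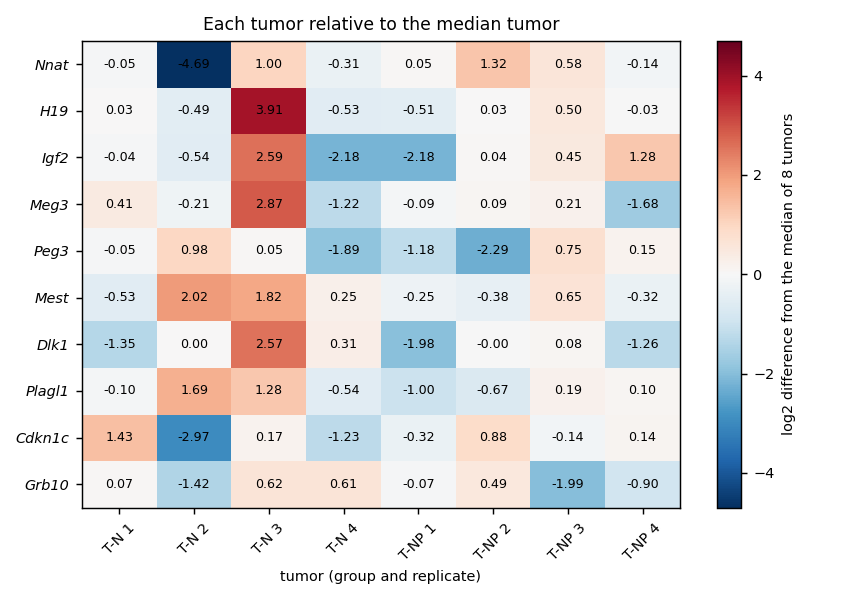
Difference of each gene (rows) in each of the 8 tumors (columns) from the median of the 8 tumors, in log2 of normalized count + 1; red is above and blue below the median tumor. T-N replicate 3 is highest in *H19* (3.91) and T-N replicate 2, which had no *Nnat* read, lowest in *Nnat* (-4.69).

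Other imprinted genes were counted from a list of 47, of which 35 were high enough to be tested in T-NP against MG-NP. There 6 of 35 were higher and 14 lower, against 14.7% and 24.0% of all genes, with a median log2 fold change of -0.45 against -0.07 over all genes. The largest falls were in *Slc22a3*, a cation transporter gene (-6.60 ± 0.42, limma adjusted p = 1.4e-05), *Nap1l5* (-6.18 ± 0.55, 5.2e-05) and *Zim1*, the zinc finger neighbour of *Peg3* (-5.02 ± 0.49, 8.2e-05). The largest rises were in *Phlda2*, a neighbour of *Cdkn1c* that restrains placental growth (4.42 ± 0.36, limma adjusted p = 3.3e-05), the tetraspanin gene *Cd81* (1.67 ± 0.11, 1.8e-05) and the transporter gene *Slc22a18* (1.46 ± 0.40, 0.013). *Phlda2* went from 2.97 ± 0.92 to 87.0 ± 33.7 normalized counts (SD, n = 4 each) while *Cdkn1c* in the same cluster fell. Within the 8 tumors, however, *Phlda2* and *Cdkn1c* were positively correlated (r = 0.87), against -0.52 over all 19 samples.

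In the comparisons with MG-WT, MG-N had 8 of 39 tested genes higher and 5 lower, MG-NP had 6 and 4 of 39, T-N had 3 and 13 of 37, and T-NP had 5 and 17 of 37. Of all genes, 37.0%, 32.6%, 42.5% and 47.8% were called in these comparisons. By limma 0 of 37 were called in MG-NP against MG-N, with 10 under an unadjusted p of 0.05 (10.5% of all genes), and 0 of 32 in T-NP against T-N, with 3 (7.27%). *Blcap*, whose gene contains *Nnat* on the other strand and which was named for that position after its values were seen, fell in T-NP against MG-NP by 1.06 ± 0.17 (limma adjusted p = 9.9e-04). Its correlation with *Nnat* was 0.84 over the 19 samples, 0.33 within the 8 tumors and 0.30 within the 8 glands of *N* and *NP* mice. Whether reads were assigned to genes by strand is not given in the sources used here, so reads of *Blcap* and *Nnat*, and of *Mest* and the overlapping *Copg2*, may be mixed in part.

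**Figure D5:**
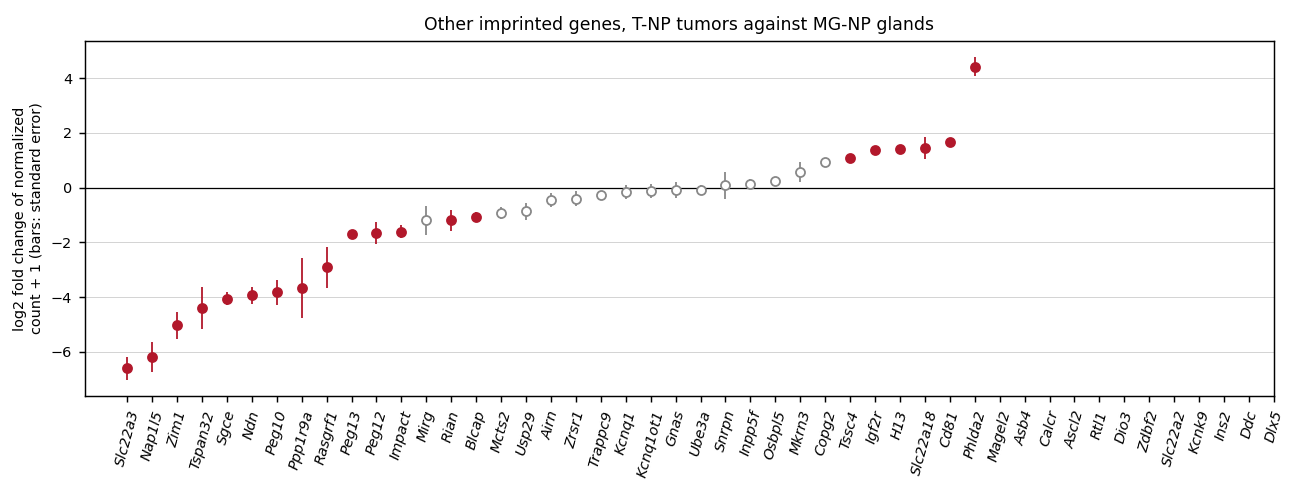
Log2 fold change of normalized count + 1 (y axis, bars are standard errors) of the 35 other imprinted genes tested in T-NP against MG-NP, in increasing order; filled red points were called and open gray points were not. The called genes lie at both ends, from *Slc22a3* (-6.60) to *Phlda2* (4.42), with 14 lower and 6 higher.

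The partners of IGF2 were followed as a list of 12 ligand, receptor, binding protein and RNA-binding protein genes, 9 of them high enough to be tested. In T-NP against MG-NP, 2 of 9 rose and 4 fell, where 14.7% and 24.0% of all genes did. The rises were in the binding proteins *Igfbp2* (3.73 ± 0.61, limma adjusted p = 0.0011) and *Igfbp5* (2.23 ± 0.32, 5.7e-04), and the largest falls in *Igfbp6* (-4.57 ± 0.37, 3.7e-05), the ligand *Igf1* (-3.88 ± 0.17, 4.0e-06) and *Igfbp4* (-2.57 ± 0.28, 1.4e-04). Thus in this comparison *Igf1*, whose product shares the type 1 receptor with IGF2, fell together with *Igf2*, from 2589 ± 337 to 176 ± 30.9 normalized counts (SD, n = 4 each). In MG-N against MG-WT the 2 ligands went opposite ways, with mean *Igf1* at 4678 against 767 and mean *Igf2* at 129 against 373. Compared with MG-WT, 3 were higher and 2 lower in MG-N, 2 and 3 in MG-NP, 0 and 3 in T-N, and 1 and 5 in T-NP, with 37.0%, 32.6%, 42.5% and 47.8% of all genes called in either direction. By limma 0 of 9 were called in MG-NP against MG-N, with 2 under an unadjusted p of 0.05 (10.5% of all genes), and 0 of 9 in T-NP against T-N, with 0 (7.27%).

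The genes most like the other members over the 19 samples were *Rai2* for *Igf2* (r = 0.968), *Ccdc8* for *Meg3* (0.939), *Ror2*, a Wnt receptor gene, for *Dlk1* (0.893), *Kirrel* for *Plagl1* (0.942), *Cd46* for *Cdkn1c* (0.951), *Gm45495* for *Grb10* (0.903), *Itgb1bp1* for *Peg3* (0.799) and *Fn1*, the fibronectin gene, for *Mest* (0.796). *Peg3* and *Mest* thus had no close match by this measure. These correlations are across samples that share group differences and are given as a description.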

How the data were processed

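RNA-seq of 3 wild-type glands and of 4 samples in each of the other groups (T-N, T-NP, MG-N, MG-NP) was analysed. Per the labels and the study's methods, reads were aligned to GRCm38 (mm10) with TopHat2 (2.1.1) and Bowtie2. The tool that counted reads, its annotation and its use of strand are not given in the sources used here, and the labels name a total RNA kit where the methods name an mRNA kit. The authors deposited 1 table of normalized counts (a signal: reads divided by a DESeq2 size factor), so the size of each library is already taken out of every value. Dividing each column by its smallest step gave whole reads for 100% of values at a tolerance of 0.05 reads. The size factor of T-N replicate 3 was close to 1 (0.990). Its values were still not whole numbers (*Nnat* 50.49 for 50 reads), so that library was scaled too.

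Log2(normalized count + 1) was fitted with limma (3.58.1, lmFit and eBayes with a trend) on the samples of the 2 groups compared, over all genes with at least 10 normalized counts in as many samples as the smaller group holds. P-values were adjusted by the Benjamini-Hochberg method over all genes tested, and genes were called at an adjusted p under 0.05 and at least a 2-fold change. Fold changes on this scale understate those of low genes. The code was tested on simulated data with known changes. Alternatives were a pseudocount of 0.5 or 5, other filters, TMM scaling, edgeR (4.0.16) and DESeq2 (1.42.0) on recovered reads, all groups in one fit, a replicate block, the muscle score as a covariate, and leaving out each sample. Gene positions are from GENCODE vM21 and promoters from RefSeq.

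The members and all lists were chosen with earlier results of these data known. All 10 members are described; of the other imprinted genes and IGF2 partners, those with the 3 largest called rises and falls in T-NP against MG-NP are named, and for each member the gene most like it (5 for *Nnat*). Replicates are separate samples by the labels. T-NP replicates 1 and 2 may share a mouse, so they may not be independent, and p-values of comparisons with T-NP may be too small. Depth limits only the genes near 0 reads, such as *Igf2* and *Dlk1* in tumors.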

Additional observations from a re-analysis of the deposited data

Results flagged for a closer look

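Of the 40 sets of 4 samples looked at (10 genes in 4 groups), 4 held a sample whose gap to its nearest neighbour took more of the whole range of the group than Dixon's 95% critical value allows. Chance flags about 1 in 20 groups. *H19* in T-N replicate 3 had 1487 normalized counts, against 67.7 to 99.98 in the other T-N tumors. *Meg3* in T-NP replicate 4 had 15.0, against 47.1 to 58.4. *Mest* in T-NP replicate 3 had 132, against 64.7 to 70.6. *Plagl1* in MG-N replicate 2 had 749, against 490.4 to 520.1.

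T-N replicate 3 was also the tumor with the highest skeletal muscle, fibroblast, white adipocyte, endothelium and macrophage scores. MG-N replicate 2 was the gland with the highest fibroblast, endothelium and macrophage scores. The part of these cell types in the values was not tested. Without T-N replicate 3 the difference of *H19* between T-NP and T-N changed from -0.73 to 0.33 on the log2 scale.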

How the results depend on the processing

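Of 489 recomputed values of the 27 results that passed the test, 457 kept direction and call, 31 lost the call and 1 reversed; of 674 values of the 37 that did not pass, 634 stayed so, 24 passed and 16 reversed. With the skeletal muscle score as a covariate, 4 genes instead of 7 were called in T-NP against MG-NP and 2 instead of 6 in MG-NP against MG-WT, *H19* in MG-NP against MG-WT turned to -2.63, *Peg3* to 0.30 in T-NP against MG-NP and to -0.028 in MG-NP against MG-N, and *Mest* to 0.29 in MG-NP against MG-N; the score and the group move together in these fits, and the cause was not tested. *Dlk1* in MG-N against MG-WT was 0.13 with edgeR and 0.15 with DESeq2 against -0.51 with limma, and DESeq2 called 2 genes in MG-NP against MG-N where limma called 0; the cause was not tested. TMM scaling moved the members' log2 fold changes by at most 0.10 in the median of a comparison (T-NP against MG-NP).

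Leaving out 1 sample gave 6 to 7 calls in T-NP against MG-NP, 4 to 6 in MG-NP against MG-WT, 3 to 5 in MG-N against MG-WT, 0 to 1 in MG-NP against MG-N, 0 in T-NP against T-N, 6 to 7 in T-NP against MG-WT and 1 to 7 in T-N against MG-WT. Ranges that crossed 0 were, in MG-NP against MG-N, -0.75 to 0.14 for *Meg3*, -0.15 to 0.45 for *Peg3*, -0.63 to 0.18 for *Mest*, -0.79 to 0.38 for *Dlk1* and -0.28 to 0.26 for *Cdkn1c*; in T-NP against T-N, -1.15 to 0.33 for *H19* and -0.97 to 0.13 for *Peg3*; and in T-NP against MG-WT, -0.10 to 0.74 for *Mest*. The replicate numbers gave no sign of pairing. In none of the 10 pairs of groups was every correlation of same-numbered samples over 0.1 (range -0.32 to 0.33). These correlations cannot exclude shared animals, since differences in tissue makeup also enter them. The library names share an animal number only between T-NP replicates 1 and 2. With the replicate number as a replicate block the counts were 7, 5, 4, 0, 0, 7 and 4 in the order above. Shares of all genes called are not given for the block or for the fits without 1 sample. Changes in these counts therefore cannot be read as particular to the members. Averaging T-NP replicates 1 and 2 into 1 sample added *Peg3* in T-NP against MG-WT.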
